A study of Mus musculus with 18 samples.

Results

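Cytochrome P450 enzymes are haem monooxygenases of the endoplasmic reticulum, and families 1 to 3 carry most of the oxidation of drugs and other foreign compounds in the liver, besides acting on steroids, bile acids, retinoids and polyunsaturated fatty acids. They draw electrons from NADPH through P450 oxidoreductase, and many of their genes are switched on by ligand-activated sensors such as the aryl hydrocarbon receptor, the pregnane X receptor (Nr1i2) and the constitutive androstane receptor (Nr1i3). In liver several of them are strongest in the hepatocytes around the central vein, and others differ between male and female mice or follow the time of day.

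The 59 genes described here are the rows of the deposited table whose symbol belongs to the subfamilies Cyp1a, Cyp1b, Cyp2 with 1 letter, or Cyp3a, followed by a number, out of 56691 genes in all. Pseudogene rows are not included. Of the 59, 15 belong to Cyp2c, 9 to Cyp2d, 8 to Cyp2j, 7 to Cyp3a, 5 to Cyp2b, 4 to Cyp2a and 2 to Cyp1a. The subfamilies Cyp1b, Cyp2e, Cyp2f, Cyp2g, Cyp2r, Cyp2s, Cyp2t, Cyp2u and Cyp2w have 1 member each. The symbols Cyp2ab1, Cyp3a41a and Cyp3a41b fall outside this form and none of the 3 passed the count filter used below.

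Liver RNA of wild-type C57BL/6 mice was sequenced in 3 groups of 6 libraries. The IR-Ori group had 1 h of ischemia of about 70% of the liver, 6 h of reperfusion and oridonin, a diterpenoid of the herb Isodon rubescens. The IR group had the same ischemia and reperfusion without oridonin, and the sham group was anaesthetised and opened without clamping. The labels give no dose, route or timing of oridonin and no sex or age of the mice. Separate mice are not stated for the 6 libraries of each group, and p-values measure only how these libraries vary, which may be technical. Transcripts of the 4 Y chromosome genes looked at were present in every library, and Xist reached at most 0.19 FPKM.

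Libraries held 12449529 to 19798188 counts. Mitochondrially encoded genes took 14.1 to 32.0% of the counts in IR-Ori libraries, 6.52 to 42.9% in IR libraries and 10.3 to 42.8% in sham libraries, and this share moved with many members within the groups, as described below. Markers of hepatocytes (7 of 8 found in the table) summed to 27870 to 43460 FPKM in IR-Ori, 24790 to 35260 FPKM in IR and 14420 to 49960 FPKM in sham libraries. The 7 neutrophil markers summed to 7.55 to 61.1 FPKM in IR-Ori, 61.6 to 296 FPKM in IR and 3.92 to 26.3 FPKM in sham libraries, so that all 6 IR libraries lay above all the others. With edgeR, 0 of the 7 passed as higher in IR-Ori than in IR and 1 passed as lower (6 lower at an unadjusted p under 0.05). DESeq2 called 4 of them lower and limma on log2(FPKM + 1) called 2 lower. All 7 were higher in IR than in sham with edgeR. Cholangiocyte markers summed to 11.6 to 36.7 FPKM in IR-Ori, 40.6 to 82.9 FPKM in IR and 17.9 to 57.7 FPKM in sham libraries, so that IR-Ori lay below IR without overlap; of the 5 tested, 1 was lower in IR-Ori than in IR (3 with DESeq2) and 1 was higher in IR than in sham. In IR over sham, 2 of 6 sinusoidal endothelium and 1 of 6 stellate cell markers were also higher, and in IR-Ori over IR 0 of these passed with edgeR (2 of each list lower at an unadjusted p under 0.05), while DESeq2 called 1 stellate marker lower. Kupffer cell and B cell markers did not pass with edgeR in either comparison, and DESeq2 called 1 Kupffer cell marker higher in IR-Ori than in IR. No marker of these 7 lists was at 0 throughout a group. The part of the mitochondrial share and of cell composition in the P450 levels was not tested beyond the values given, and in bulk liver fewer cells of a type and less RNA per cell cannot be told apart.

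The members differed in level by several orders of magnitude. FPKM, the count scaled to exon length and library total, averaged at least 100 over the 18 libraries for 15 members, between 10 and 100 for 14, between 1 and 10 for 9 and under 1 for 21. Cyp2e1, which oxidises ethanol and paracetamol, was the highest member in 17 of the 18 libraries, and Cyp2d13 was the highest in sham 2. No count fell on 7 members in any library, namely Cyp2b23, Cyp2c66, Cyp2j7, Cyp2j11, Cyp2j12, Cyp2j13 and Cyp2w1; a count of 0 allows up to 0.241 CPM in the smallest library, for counting error only. A total of 42 members passed the count filter and 17 did not. The 17 include the 7 without a count, Cyp2b13, Cyp3a16 and Cyp3a44, which are known for higher levels in female mouse liver and reached at most 0.43, 0.25 and 0.45 FPKM, and Cyp2s1 and Cyp2t4, which reached at most 0.12 and 0.92 FPKM.

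In IR-Ori over IR, 2 genes of the Cyp2j cluster of chromosome 4 were called, Cyp2j6 and Cyp2j9, while Cyp2j8 and Cyp2j5 were not. The largest spread between libraries belongs to Cyp2a4 of chromosome 7, which has the near copy Cyp2a5. The promoters of these 6 members are shown. They are RefSeq sequences of the build GRCm38.p6, 5′ to 3′ on the strand of the gene, from 250 bases before to 50 bases after the start, while all gene positions in the rest of the text are those of the deposited table on GRCm39. RefSeq promoters were found for 50 of the 59 members.

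Cyp2j6 (chr4:96553602-96553901), Cyp2j9 (chr4:96591436-96591735), Cyp2j8 (chr4:96507348-96507647) and Cyp2j5 (chr4:96664070-96664369) lie on the minus strand. In these 4, the capitals mark TGGGTAAA, the longest run of bases that all 4 share on the strand of the gene.
Cyp2j6: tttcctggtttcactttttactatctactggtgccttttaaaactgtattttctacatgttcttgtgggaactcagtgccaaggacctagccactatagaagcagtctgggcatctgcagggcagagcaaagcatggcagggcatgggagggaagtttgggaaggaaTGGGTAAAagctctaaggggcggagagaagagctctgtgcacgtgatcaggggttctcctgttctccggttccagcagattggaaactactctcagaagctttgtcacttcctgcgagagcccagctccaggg
Cyp2j9: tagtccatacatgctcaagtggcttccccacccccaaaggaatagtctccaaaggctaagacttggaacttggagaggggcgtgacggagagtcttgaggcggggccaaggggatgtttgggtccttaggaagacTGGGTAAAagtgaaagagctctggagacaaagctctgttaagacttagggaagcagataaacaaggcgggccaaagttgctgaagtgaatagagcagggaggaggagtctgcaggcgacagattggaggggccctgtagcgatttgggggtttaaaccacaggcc
Cyp2j8: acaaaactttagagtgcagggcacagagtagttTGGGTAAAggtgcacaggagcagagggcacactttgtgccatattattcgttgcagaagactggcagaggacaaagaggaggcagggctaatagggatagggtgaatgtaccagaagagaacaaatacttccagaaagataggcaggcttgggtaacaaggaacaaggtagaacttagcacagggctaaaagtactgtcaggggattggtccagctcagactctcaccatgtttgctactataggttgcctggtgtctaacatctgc
Cyp2j5: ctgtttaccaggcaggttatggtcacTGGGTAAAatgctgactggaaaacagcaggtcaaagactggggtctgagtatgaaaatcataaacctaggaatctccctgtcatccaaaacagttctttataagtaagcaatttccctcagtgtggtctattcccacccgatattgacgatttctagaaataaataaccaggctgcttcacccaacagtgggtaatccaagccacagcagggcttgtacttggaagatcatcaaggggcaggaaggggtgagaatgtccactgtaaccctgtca
The run begins at position -83 of Cyp2j6, -115 of Cyp2j9, -217 of Cyp2j8 and -224 of Cyp2j5 relative to the start. It is present on either strand in 249 of 27025 mouse promoters of the same length (0.921%), and among the 50 members with a promoter also in Cyp3a11. The run was picked because these 4 promoters share it, so its presence in them was fixed in advance. The 0.921% is therefore no measure of enrichment in the Cyp2j genes. In a global alignment of the whole promoters, Cyp2j6 was 50.3% identical to Cyp2j9, 51.3% to Cyp2j8 and 48.1% to Cyp2j5. The identity that unrelated promoters reach in such an alignment was not computed.

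Cyp2a4 (chr7:26306942-26307241) and Cyp2a5 (chr7:26835089-26835388) lie on the plus strand. The capitals mark, in order, a match to the D-box TTATGNAA read on the opposite strand and a TATAAA box.
Cyp2a4: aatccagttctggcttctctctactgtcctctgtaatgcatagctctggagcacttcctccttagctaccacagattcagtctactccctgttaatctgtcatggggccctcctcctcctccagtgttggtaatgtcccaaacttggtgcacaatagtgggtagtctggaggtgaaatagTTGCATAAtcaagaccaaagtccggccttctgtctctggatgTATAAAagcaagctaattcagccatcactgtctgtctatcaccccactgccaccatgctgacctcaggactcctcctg
Cyp2a5: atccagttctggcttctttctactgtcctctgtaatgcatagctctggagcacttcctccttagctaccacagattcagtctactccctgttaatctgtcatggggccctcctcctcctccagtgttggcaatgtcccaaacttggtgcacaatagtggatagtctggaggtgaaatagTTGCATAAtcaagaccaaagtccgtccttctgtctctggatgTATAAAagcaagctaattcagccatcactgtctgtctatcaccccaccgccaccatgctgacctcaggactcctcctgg
The 2 sequences are 97.7% identical, with 5 mismatches and 2 gap positions. The D-box is the site of the PAR bZIP factors Dbp, Tef and Hlf, clock output factors for which Cyp2a4 and Cyp2a5 are known targets in mouse liver. On either strand, TTATGNAA was found in 5 of the 50 member promoters, namely Cyp2a4, Cyp2a5, Cyp2b10, Cyp2b19 and Cyp2b23, against 3.52% of all promoters, and TATAAA in 25 against 14.2%. CAAAGTCCA, a site of the hepatocyte factor HNF4, was found in 8 members (16.0%) against 0.477%, of which 6 are Cyp2c genes and 2 are Cyp3a genes. TNGCGTG, the core bound by the aryl hydrocarbon receptor, was found in Cyp2c68 alone (2.0% against 5.12%), and the AP-1 site TGANTCA in Cyp2c70 and Cyp3a13 (4.0% against 7.93%). These motifs do not overlap each other in the sequences printed. A match describes the sequence and does not show binding, and near copies such as Cyp2a4 and Cyp2a5 are not independent of each other.

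Summed by subfamily, Cyp2e, Cyp2d, Cyp3a and Cyp2c made up most of the P450 message in each group. All 59 members together summed to a median of 4014 FPKM in IR-Ori, 5587 FPKM in IR and 6631 FPKM in sham libraries, with ranges of 2889 to 8136, 2943 to 7546 and 3389 to 10570 FPKM that overlapped in every pair of groups. Cyp2e1 alone took a median of 19.1% of this sum in IR-Ori, 34.8% in IR and 31.1% in sham libraries. The Cyp2d genes took 23.3%, 22.9% and 21.4%, the Cyp3a genes 18.7%, 17.6% and 17.1%, and the Cyp2c genes 16.4%, 13.4% and 14.4%, in the order IR-Ori, IR and sham. The Cyp2j genes took 2.75 to 4.85% in IR-Ori libraries against 2.18 to 2.78% in IR libraries, ranges that nearly separate, and 2.58 to 3.19% in sham libraries. Such a share also depends on the rest of the sum. The Cyp2j sum itself overlapped, with 106 to 256 FPKM in IR-Ori (median 147), 80.5 to 197 FPKM in IR (median 139) and 105 to 273 FPKM in sham libraries (median 194).

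**Figure D1:**
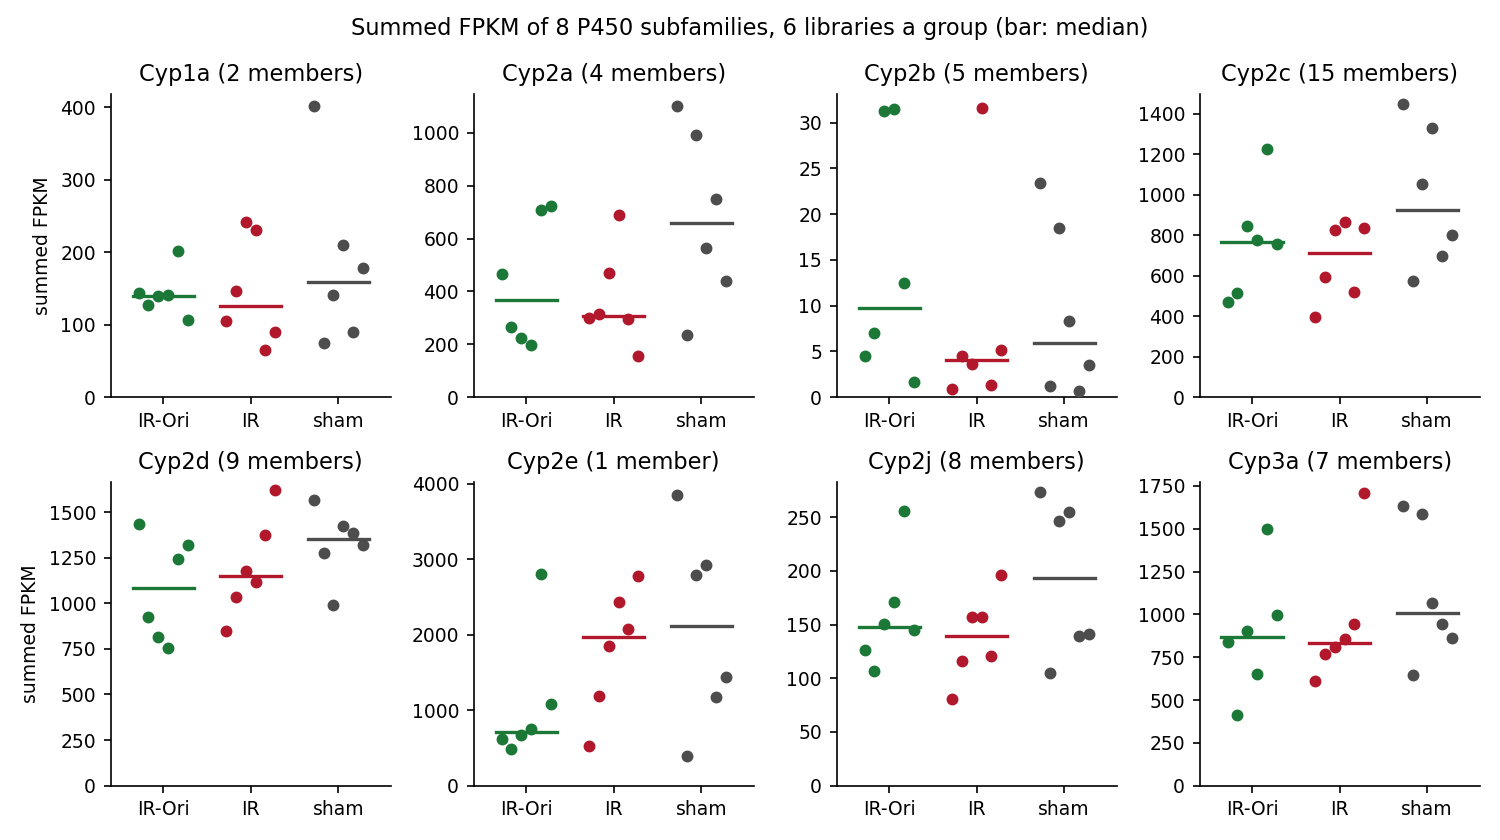
Summed FPKM of the members of 8 subfamilies (y axes, each from 0) in the IR-Ori, IR and sham libraries (x axis, 6 points a group, the bar is the median). The Cyp2e panel holds 1 gene and shows 5 of the 6 IR-Ori libraries at or under 1082 FPKM, with IR-Ori 5 at 2802 FPKM.

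The comparison of IR-Ori with IR asks which P450 messages differ in reperfused liver when oridonin is given. No group had oridonin without ischemia, so the drug alone was not measured. Of the 42 members tested, 2 were higher in IR-Ori and 0 were lower, and both that rose, Cyp2j6 and Cyp2j9, belong to the arachidonic acid and linoleic acid oxidising Cyp2j subfamily. Over all 14595 genes tested, 0.596% were called higher and 3.01% lower (3.6% in all, edgeR quasi-likelihood test, adjusted p under 0.05). The median log2 fold change of the 42 members was 0.05 and that of all genes near 0, with 25 above 0 and 17 below. The unadjusted p was under 0.05 for 8 higher members and 1 lower member, beside 9.81% and 14.4% of all genes. DESeq2 called 3 members higher, with Cyp2d22 added to these 2, and 1 lower, Cyp2c39. The share of all genes that DESeq2 called is not given here, so its count is not read as a trait of the members.

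Cyp2j6 (ENSMUSG00000052914, chromosome 4, 96404375 to 96441898, minus strand) had 21.6 FPKM in its lowest, 26.0 in its median and 40.9 in its highest IR-Ori library, against 10.8, 14.3 and 20.7 FPKM in IR libraries and 17.1, 19.9 and 34.4 FPKM in sham libraries. All 6 IR-Ori libraries lay above all 6 IR libraries, and it was the only member whose groups did not overlap in any comparison, beside 0.391% of all genes that were higher without overlap. The log2 fold change of IR-Ori over IR was 1.01 ± 0.22 (SE, edgeR adjusted p = 0.0187). Its level had no slope on the mitochondrial share that passed the test (0.04 per 10 percentage points, edgeR adjusted p = 0.735), and with that share as a covariate the fold change was 0.98 (edgeR adjusted p = 0.0334). The call was lost without IR 5 (edgeR adjusted p = 0.0537) and with limma on log2(FPKM + 0.1), where the adjusted p was 0.0537.

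Cyp2j9 (ENSMUSG00000015224, chromosome 4, 96456666 to 96479815, minus strand), the next gene of the cluster, had 12.7, 27.5 and 45.7 FPKM in its lowest, median and highest IR-Ori library, against 3.01, 9.30 and 15.1 FPKM in IR libraries and 7.68, 14.2 and 37.4 FPKM in sham libraries. Only IR-Ori 5, at 12.7 FPKM, lay within the IR range. Its log2 fold change was 1.72 ± 0.43 (SE, edgeR adjusted p = 0.0320). The level of Cyp2j9 also rose with the mitochondrial share, by 0.53 ± 0.12 per 10 percentage points within the groups (edgeR adjusted p = 0.00171), and IR-Ori 5 had the lowest share of its group. With the share as a covariate the fold change was 1.34 (edgeR adjusted p = 0.0406). The call was lost when any of IR-Ori 1, 2, 3, 4 and 6 or IR 4, 5 and 6 was left out, with edgeR adjusted p up to 0.0907 and a fold change between 1.53 and 1.93 over all 18 single omissions. It was also lost with only the IR-Ori and IR libraries in the fit (edgeR adjusted p = 0.0513) and with the replicate block (edgeR adjusted p = 0.0597). With limma it was lost on log2(FPKM + 0.1) (adjusted p = 0.0501) and on log2(FPKM + 1) without a filter (adjusted p = 0.0982). The same holds in libraries of at least 15% mitochondrial share, given below.

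The other genes of the cluster that passed the count filter did not pass the test. Cyp2j8, the lowest of them, had 0.09, 1.73 and 8.30 FPKM in its lowest, median and highest IR-Ori library, against 0.17, 0.65 and 2.52 FPKM in IR and 0.37, 0.635 and 1.09 FPKM in sham, with a log2 fold change of IR-Ori over IR of 1.77 ± 0.73 (edgeR adjusted p = 0.149). Cyp2j5, an arachidonic acid epoxygenase of liver and kidney and the highest of the cluster, had 57.7, 73.9 and 221 FPKM in IR-Ori, against 56.7, 111 and 177 FPKM in IR and 38.6, 163 and 228 FPKM in sham, and its fold change was -0.16 ± 0.40 (edgeR adjusted p = 0.824). The level of Cyp2j5 fell with the mitochondrial share (-0.55 per 10 percentage points, edgeR adjusted p = 0.000191), the opposite sign to Cyp2j9. None of the 75-base transcript windows of these 4 genes in GENCODE M21 occurs in another Cyp gene, and genes of other names were not compared. With only the libraries of at least 15% mitochondrial share (5 IR-Ori and 3 IR), a choice made after the data were seen, the fold changes were 1.00 for Cyp2j6 and 1.41 for Cyp2j9 and neither passed (edgeR adjusted p = 0.277 and 0.171). Under 15% there was 1 IR-Ori library, so no such comparison was made there.

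**Figure D2:**
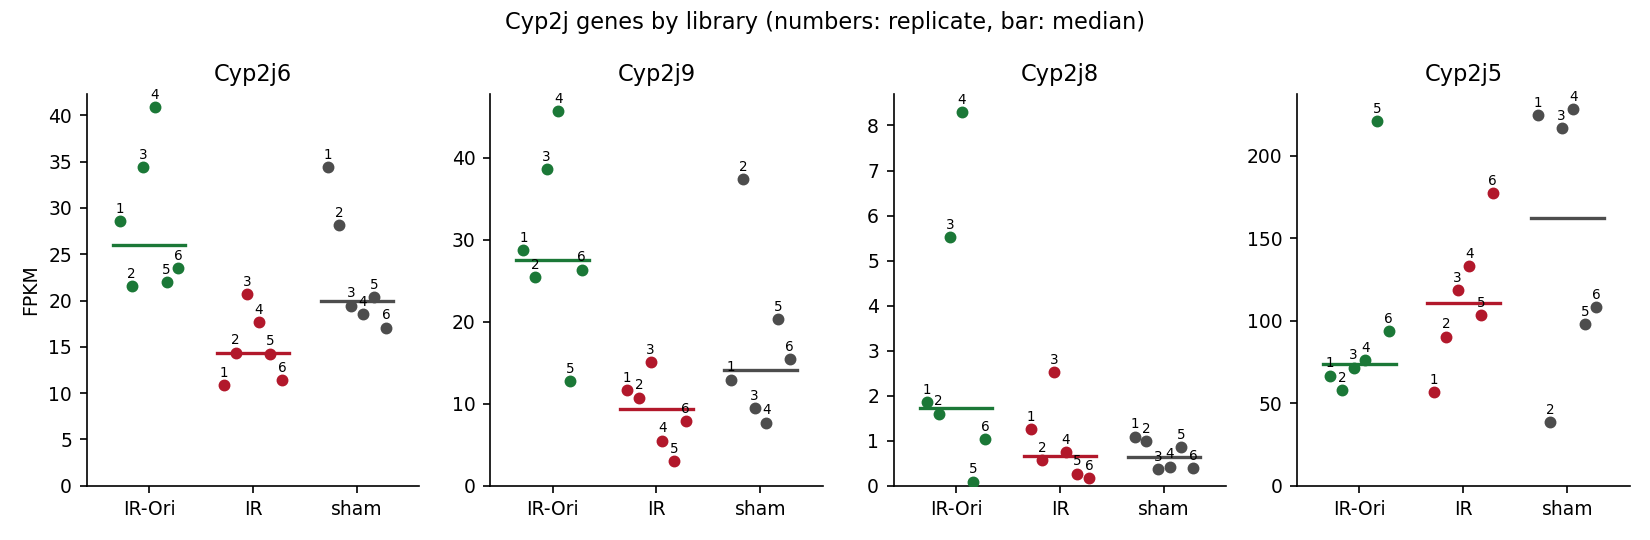
FPKM (y axes, each from 0) of Cyp2j6, Cyp2j9, Cyp2j8 and Cyp2j5 in the IR-Ori, IR and sham libraries (x axis, numbered by replicate, the bar is the median). Every IR-Ori point of Cyp2j6, from 21.6 FPKM up, lies above every IR point, of which the highest is 20.7 FPKM, while Cyp2j5 overlaps throughout.

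Several other members stood higher in IR-Ori than in IR at an unadjusted p under 0.05 and did not pass after adjustment. Cyp2d22, the mouse gene often set beside human CYP2D6, had 48.2, 59.9 and 79.2 FPKM in its lowest, median and highest IR-Ori library, against 28.5, 37.5 and 59.98 FPKM in IR libraries and 49.5, 54.1 and 74.3 FPKM in sham libraries (log2 fold change of IR-Ori over IR 0.66 ± 0.20, edgeR adjusted p = 0.0699). It passed with DESeq2 (adjusted p = 0.0186) and without IR-Ori 5 or IR 2 (edgeR adjusted p = 0.0475 and 0.0391). Cyp2d13 had 84.5, 217 and 429 FPKM in IR-Ori, against 24.7, 79.1 and 177 FPKM in IR and 117, 274 and 511 FPKM in sham, with a fold change of 1.39 ± 0.55 (edgeR adjusted p = 0.136), and passed without IR 1 (edgeR adjusted p = 0.0465). It shares its locus with the antisense gene Gm49431, which averaged 5.43 FPKM, and the strand of the counting is not stated. The level of Cyp2d13 also rose with the mitochondrial share (0.67 per 10 percentage points, edgeR adjusted p = 0.00155).

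The 1 member lower at an unadjusted p under 0.05 was Cyp2c39, known for oxidising retinoic acid, with 0.08, 0.245 and 0.82 FPKM in IR-Ori against 0.29, 0.595 and 4.88 FPKM in IR libraries (log2 fold change -2.004 ± 0.704, edgeR adjusted p = 0.103). It passed with DESeq2 (adjusted p = 0.0395), and IR 6, at 4.88 FPKM, stood above the other IR libraries, which reached at most 1.55 FPKM. Without IR 6 the fold change was -0.84 (edgeR adjusted p = 0.433), with the mitochondrial share as a covariate -1.12, and in libraries of at least 15% -0.54.

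Among the most abundant drug oxidising members none passed in this comparison. Cyp2e1 (chromosome 7, 140343652 to 140354900, plus strand) had 482, 713 and 2802 FPKM in its lowest, median and highest IR-Ori library, against 523, 1965 and 2774 FPKM in IR libraries and 388, 2112 and 3852 FPKM in sham libraries. The groups overlapped, and 1 library decided the upper end of IR-Ori: IR-Ori 5 held the 2802 FPKM, while the other 5 did not exceed 1082 FPKM. The log2 fold change of IR-Ori over IR was -0.69 ± 0.51 (edgeR adjusted p = 0.401), and without IR-Ori 5 it was -1.24 (edgeR adjusted p = 0.0990). Without IR 6 it was -0.46, and with the mitochondrial share as a covariate it was -0.16 (edgeR adjusted p = 0.786).

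Cyp3a11 (chromosome 5, 145791236 to 145816774, minus strand), the main mouse counterpart of human CYP3A4 and a target of the pregnane X receptor, had 188, 247 and 766 FPKM in IR-Ori, against 199, 522 and 1063 FPKM in IR and 90.4, 494 and 909 FPKM in sham, with a fold change of -0.74 ± 0.49 (edgeR adjusted p = 0.3503). That value was -1.19 without IR-Ori 5, -0.37 without IR 6 and -0.24 with the mitochondrial share as a covariate (edgeR adjusted p = 0.674). Cyp1a2 (chromosome 9, 57584220 to 57590986, minus strand), which oxidises caffeine and aromatic amines, had 106, 139 and 201 FPKM in IR-Ori, against 64.9, 126 and 241 FPKM in IR and 74.3, 160 and 402 FPKM in sham, with a fold change of 0.02 ± 0.38 (edgeR adjusted p = 0.978). Cyp1a1, the most inducible target of the aryl hydrocarbon receptor, stayed at or under 0.80 FPKM in IR-Ori, 0.81 FPKM in IR and 0.51 FPKM in sham libraries.

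**Figure D3:**
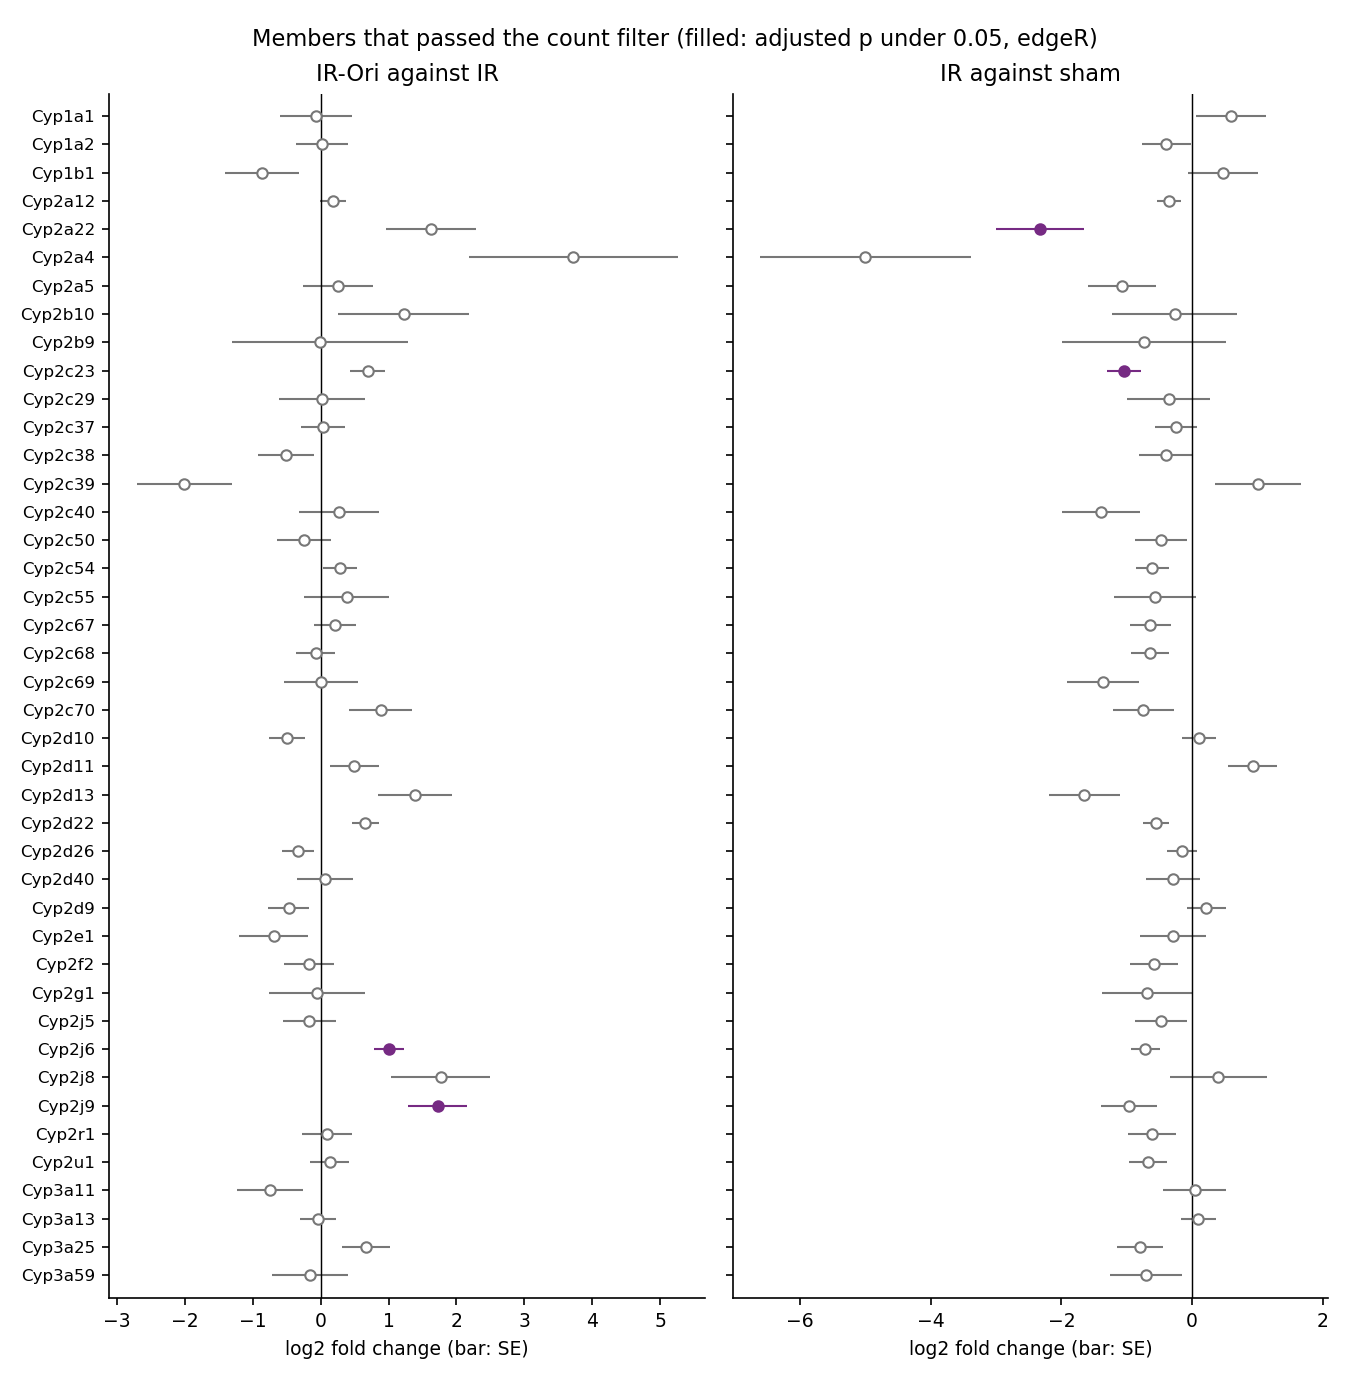
Log2 fold changes (x axes, bars are standard errors) of the 42 members that passed the count filter (y axis), for IR-Ori over IR on the left and IR over sham on the right. Filled points have an edgeR adjusted p under 0.05: Cyp2j6 and Cyp2j9 at 1.01 and 1.72 on the left, Cyp2a22 and Cyp2c23 at -2.33 and -1.04 on the right. The 2 panels share the IR libraries.

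The comparison of IR with sham asks what ischemia and reperfusion did to these messages. Of the 42 members tested, 2 were lower in IR, Cyp2c23 and Cyp2a22, and 0 were higher, beside 2.36% lower and 5.52% higher among all genes, 7.89% together (edgeR adjusted p under 0.05). The members as a list lay below 0, with a median log2 fold change of -0.56, where that of all genes was near 0, and 33 of 42 below 0. At an unadjusted p under 0.05, 13 members were lower and 1 was higher, beside 9.87% and 13.6% of all genes. DESeq2 called 5 members lower and 0 higher, a count given without its share over all genes and not read as a trait of the members. No member separated the groups, beside 1.13% of all genes that were lower without overlap and 2.04% higher.

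Cyp2c23 (ENSMUSG00000025197, chromosome 19, 43993461 to 44017647, minus strand), an arachidonic acid epoxygenase, had 75.2, 102 and 163 FPKM in its lowest, median and highest IR-Ori library and 50.2, 64.8 and 95.9 FPKM in IR libraries, against 67.0, 141 and 181 FPKM in sham libraries. All sham libraries but sham 2, at 67.0 FPKM and with 42.8% mitochondrial counts, lay above all IR libraries. The log2 fold change of IR over sham was -1.04 ± 0.26 (SE, edgeR adjusted p = 0.0179), and it passed in each of the 18 fits that left out 1 library (edgeR adjusted p 0.00718 to 0.0469). Its slope on the mitochondrial share did not pass (-0.12 per 10 percentage points, edgeR adjusted p = 0.318). In libraries under 15% (3 IR and 3 sham) the fold change was -1.55 (edgeR adjusted p = 0.0129), and in those of at least 15% (3 and 3) it was -0.54 (edgeR adjusted p = 0.454). IR-Ori over IR was 0.69 ± 0.26 (edgeR adjusted p = 0.117), a difference that contains the same IR libraries.

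Cyp2a22 (ENSMUSG00000091867, chromosome 7, 26631056 to 26638809, minus strand) was a low gene, with 0.85, 1.10 and 8.23 FPKM in its lowest, median and highest IR-Ori library and 0.39, 0.66 and 1.49 FPKM in IR libraries, against 1.00, 2.01 and 12.7 FPKM in sham libraries. The groups overlapped, and 1 library, sham 5 at 12.7 FPKM, stood far above the others of its group. The log2 fold change of IR over sham was -2.33 ± 0.67 (SE, edgeR adjusted p = 0.0383). Without sham 5 it was -1.45 (edgeR adjusted p = 0.141), and the call was also lost when any of IR 2 to IR 6 was left out, with limma on log2(FPKM + 1) (adjusted p = 0.146) and with the mitochondrial share as a covariate (edgeR adjusted p = 0.0554). In libraries under 15% the fold change was -0.63 and in those of at least 15% it was -3.30 (edgeR adjusted p = 0.385 and 0.197). Of its transcript windows, 9.21% also occur in other Cyp genes, most of them in Cyp2a12.

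The members lower at an unadjusted p under 0.05 that did not pass came from Cyp2a, Cyp2c, Cyp2d, Cyp2j, Cyp2u and Cyp3a. Cyp2j6 was close to the threshold, at -0.71 ± 0.22 (edgeR adjusted p = 0.0536), and passed with DESeq2 (adjusted p = 0.0220) and with the mitochondrial share as a covariate (edgeR adjusted p = 0.0375). Cyp2d13 was at -1.65 ± 0.55 (edgeR adjusted p = 0.0711) and passed with that covariate (edgeR adjusted p = 0.0104). Cyp2d22 was at -0.55 ± 0.20 (edgeR adjusted p = 0.1002) and Cyp2j9 at -0.96 ± 0.43 (edgeR adjusted p = 0.177).

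In the Cyp2c subfamily 12 of the 13 members tested had a fold change below 0, with a median of -0.61. The 13 are not all separate measures. Of the transcript windows of Cyp2c67 and Cyp2c68, 36.0% and 28.5% occur in other Cyp genes, with Cyp2c40 holding most. Cyp2c40 and Cyp2c69 were at -1.40 ± 0.60 and -1.36 ± 0.55 (edgeR adjusted p = 0.159 and 0.137), but 45.9% and 42.6% of their transcript windows occur in other Cyp genes. The gene that holds most of them is Cyp2c69 for Cyp2c40 and Cyp2c40 for Cyp2c69, so the pair cannot be counted as 2 separate results. Both passed in libraries under 15% mitochondrial share, at -2.58 and -2.48 (edgeR adjusted p = 0.0136 and 0.00959), and were at 0.19 and 0.25 in those of at least 15%. Cyp2c70, which makes the muricholic acids of mouse bile, had 23.0, 80.8 and 154 FPKM in IR, against 41.3, 141 and 189 FPKM in sham, and did not pass (-0.74 ± 0.46, edgeR adjusted p = 0.347).

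Other members known for a substrate or an inducer also overlapped between the groups and did not pass. Cyp2c29, induced through the constitutive androstane receptor, had 24.4, 85.6 and 148 FPKM in its lowest, median and highest IR-Ori library, 28.3, 62.0 and 168 FPKM in IR libraries and 22.2, 104 and 223 FPKM in sham libraries. Cyp2f2, which oxidises naphthalene, had 46.1, 63.3 and 181 FPKM in IR-Ori, 68.1, 91.3 and 152 FPKM in IR and 82.4, 123 and 255 FPKM in sham. No group of either gene stood clear of another. Cyp2d9, a testosterone hydroxylase known for higher levels in male mice, had 194, 213 and 314 FPKM in IR-Ori, 188, 275 and 533 FPKM in IR and 109, 258 and 451 FPKM in sham. Cyp2d26, on average the highest Cyp2d gene, had 140, 268 and 374 FPKM in IR-Ori, 237, 345 and 407 FPKM in IR and 279, 364 and 438 FPKM in sham. Cyp2c55, Cyp2g1 and Cyp1b1 stayed at or under 2.94, 1.39 and 0.42 FPKM in every library.

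No Cyp3a gene passed in IR over sham, and 1 of the 4 tested, Cyp3a25, was lower at an unadjusted p under 0.05. Cyp3a25, nearly as high as Cyp3a11 on average, had 135, 524 and 655 FPKM in its lowest, median and highest IR-Ori library and 171, 253 and 496 FPKM in IR libraries, against 357, 515 and 629 FPKM in sham, and was at -0.80 ± 0.35 in IR over sham (edgeR adjusted p = 0.171). Cyp3a11 was at 0.04 ± 0.49 (edgeR adjusted p = 0.972), a value whose sign changed with the library scaling, and Cyp3a13 at 0.10 ± 0.26 (edgeR adjusted p = 0.863). Cyp3a13 overlaps Gm15502 on the same strand, which averaged 67.1 FPKM, so its counts are uncertain. Cyp2e1 was at -0.29 ± 0.50 (edgeR adjusted p = 0.774), between -0.57 and -0.07 when 1 library was left out, and Cyp1a2 at -0.40 ± 0.38 (edgeR adjusted p = 0.568). Cyp2d11 was the 1 member higher at an unadjusted p under 0.05, at 0.93 ± 0.37 (edgeR adjusted p = 0.133), with at most 2.53 FPKM. Of its windows, 21.9% occur in other Cyp genes, Cyp2d10 holding most. Cyp2u1, which hydroxylates long-chain fatty acids, was at -0.67 ± 0.29 (edgeR adjusted p = 0.163), and the vitamin D 25-hydroxylase gene Cyp2r1 at -0.61 ± 0.37 (edgeR adjusted p = 0.331).

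Between IR-Ori and sham 0 of the 42 members passed, as did 0 of all 14595 genes (0.0% in either direction, edgeR). At an unadjusted p under 0.05, 2 members were higher and 3 lower, beside 6.34% and 3.66% of all genes, and DESeq2 and limma also called 0 members. No member separated these groups, beside 0.171% of all genes that were higher without overlap and 0.0343% lower. The median log2 fold change of the members was -0.39, beside -0.01 over all genes, with 33 of 42 below 0. Cyp2d11 was at 1.43 ± 0.38 and Cyp2j8 at 2.17 ± 0.74 (edgeR adjusted p = 0.374 and 0.454). The 3 lower ones were Cyp2c38, Cyp2c68 and Cyp2c69, at -0.91 ± 0.41, -0.71 ± 0.29 and -1.35 ± 0.55 (edgeR adjusted p = 0.498 each). Of the transcript windows of Cyp2c68 and Cyp2c69, 28.5% and 42.6% occur in other Cyp genes, with Cyp2c40 holding most for both. The 2 may therefore not be separate results. Cyp2j6 and Cyp2j9 were at 0.29 ± 0.22 and 0.77 ± 0.43 (edgeR adjusted p = 0.576 and 0.501) and Cyp1a2 at -0.37 ± 0.38 (edgeR adjusted p = 0.677). Cyp2e1 was at -0.98 ± 0.51 and Cyp3a11 at -0.70 ± 0.49 (edgeR adjusted p = 0.498 and 0.552). With the mitochondrial share as a covariate they were at -0.46 and -0.17, in libraries of at least 15% at -0.50 and -0.10, and without IR-Ori 5 at -1.53 and -1.15.

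Within the groups, the level of many members moved with the mitochondrial share of the library. Of the 42, 16 were lower and 2 higher in libraries with a larger share, beside 23.0% lower and 19.9% higher of all genes (edgeR, adjusted p under 0.05), and the median slope was -0.24 on the log2 scale per 10 percentage points, beside -0.01 over all genes. The smallest adjusted p belonged to 2 of the most abundant members, Cyp2e1 at -0.77 ± 0.11 (edgeR adjusted p = 3.03e-05) and Cyp3a11 at -0.71 ± 0.11 (edgeR adjusted p = 5.31e-05). The epoxygenase Cyp2j5 followed at -0.55 ± 0.10, Cyp2c50 at -0.51 ± 0.11 and Cyp2d10 at -0.33 ± 0.07 (edgeR adjusted p = 0.000191, 0.00110 and 0.000828). Cyp2c29, Cyp2c37, Cyp2c38, Cyp2c39, Cyp2c67, Cyp2c68, Cyp2a4, Cyp2b10, Cyp2f2, Cyp2r1 and Cyp3a13 were also lower, and Cyp2d13 and Cyp2j9 were the 2 higher ones, at 0.67 ± 0.15 and 0.53 ± 0.12.

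The slopes were estimated after TMM scaling of the counts, with the group in the model. Por, the P450 oxidoreductase, had a slope of the same sign (-0.35, edgeR adjusted p = 0.000667). Hepatocyte markers fell with the share in 4 of 7 cases and rose in 0. The cause of the slopes was not tested.

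**Figure D4:**
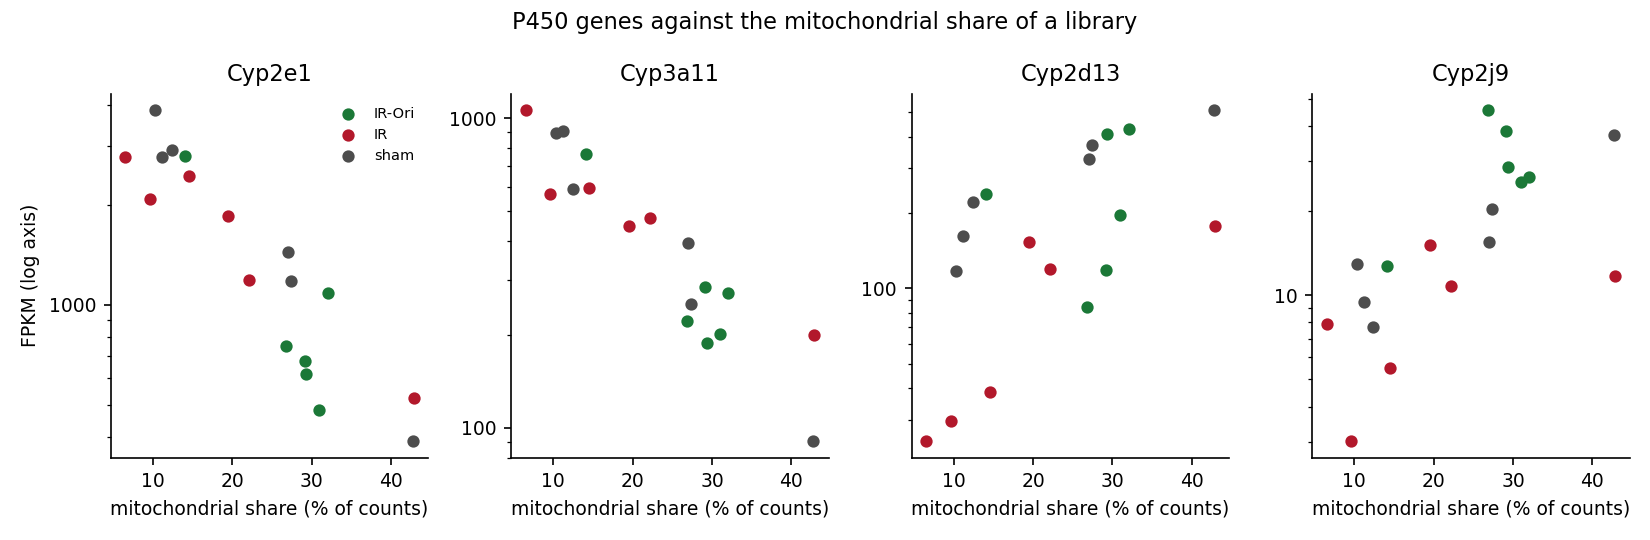
FPKM (log y axes) of Cyp2e1, Cyp3a11, Cyp2d13 and Cyp2j9 against the share of counts on mitochondrially encoded genes (x axes, %), 1 point per library, coloured by group (IR-Ori, IR and sham, 6 each). Cyp2e1 and Cyp3a11 lie lower at a larger share in IR and sham. In IR-Ori both are highest in IR-Ori 5, at 14.1%, and the other libraries show no such order. Of those, IR-Ori 6, with the largest share (32.0%), has the highest Cyp2e1 (1082 FPKM). Cyp2d13 and Cyp2j9 lie mostly higher at a larger share.

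The widest spread between libraries of a group belonged to Cyp2a4, Cyp2b9 and Cyp2b10, with standard deviations of 2.48, 2.33 and 2.11 on the log2 CPM scale, above those of at least 99.9% of the genes tested. Cyp2a4 (chromosome 7, 26006594 to 26014513, plus strand), a testosterone hydroxylase known for higher levels in female mice, had 0.16, 1.08 and 70.5 FPKM in its lowest, median and highest IR-Ori library, against 0.11, 0.65 and 3.47 FPKM in IR and 1.17, 2.17 and 178 FPKM in sham libraries. The 2 high values were those of IR-Ori 5 and sham 3, and every other library was at or under 6.38 FPKM. IR over sham was at -5.00 ± 1.61 (edgeR adjusted p = 0.0619) and IR-Ori over IR at 3.72 ± 1.54 (edgeR adjusted p = 0.151), and the first passed with no filter on low counts and with only the IR and sham libraries in the fit. Leaving out 1 library at a time moved the first to between -5.88 and -1.54 and the second to between 0.35 and 4.57, so both sizes rest on single libraries. Cyp2a4 shares 22.1% of its transcript windows with other Cyp genes, most with Cyp2a5, the coumarin hydroxylase, so some counts may belong elsewhere. It also overlaps the antisense gene Gm42375, which averaged 0.39 FPKM. Cyp2a5 itself had 95.4, 239 and 558 FPKM in IR-Ori, against 58.7, 198 and 562 FPKM in IR and 143, 486 and 918 FPKM in sham (IR over sham -1.07 ± 0.52, edgeR adjusted p = 0.222).

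Cyp2b9, also known for higher levels in female mice, was highest in the same 2 libraries, with 5.77 FPKM in IR-Ori 5 and 9.45 FPKM in sham 3, and in IR 4 with 8.18 FPKM, against at most 1.96 FPKM elsewhere. Cyp2b10, the classical target of the constitutive androstane receptor, had another pattern, with 31.2 and 31.5 FPKM in IR-Ori 3 and 4, 23.0 FPKM in IR 4 and 22.5 FPKM in sham 1, against at most 9.06 FPKM in the other libraries. At the other end, Cyp2a12 had a standard deviation of 0.26 and lay between 88.5 and 187 FPKM in all 18 libraries.

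**Figure D5:**
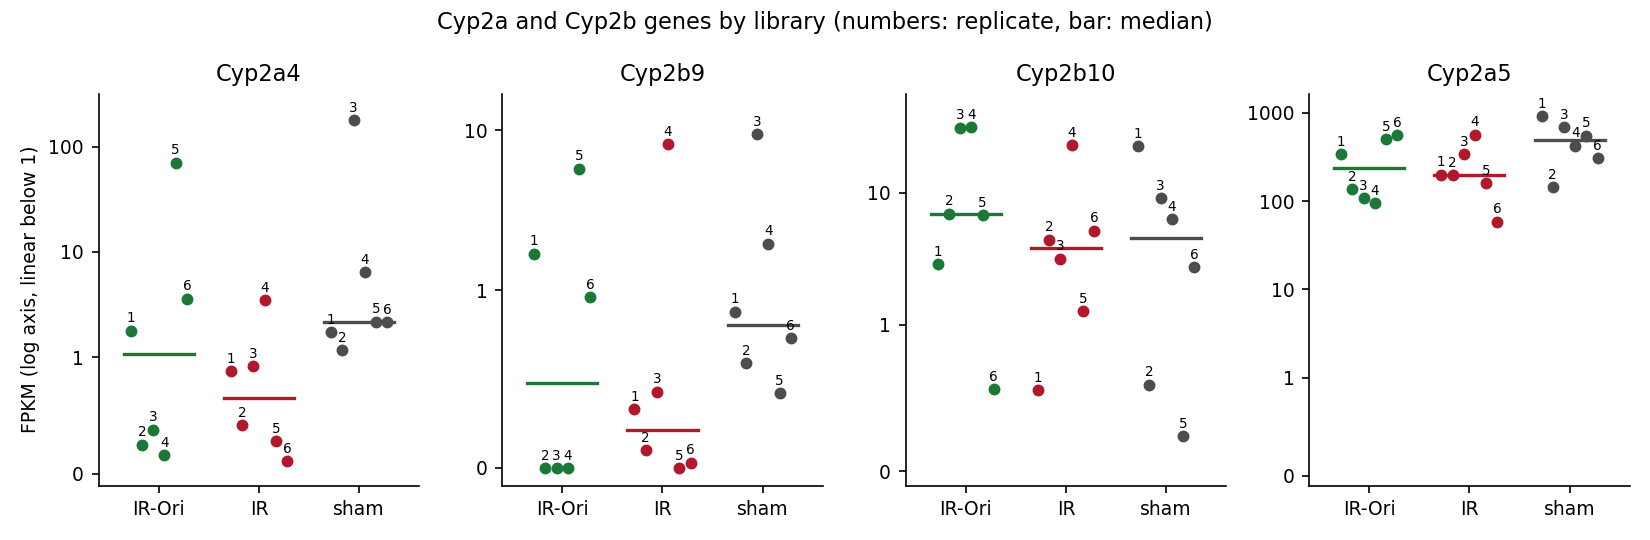
FPKM (log y axes, linear below 1) of Cyp2a4, Cyp2b9, Cyp2b10 and Cyp2a5 in the IR-Ori, IR and sham libraries (x axis, numbered by replicate, the bar is the median). Cyp2a4 stands at 70.5 FPKM in IR-Ori 5 and 178 FPKM in sham 3 and at or under 6.38 FPKM in the other libraries.

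The 42 members did not share these library patterns evenly. In IR-Ori, 22 of them had their highest value of the group in IR-Ori 5, the library with the lowest mitochondrial share of its group, and 14 had their lowest in IR-Ori 2. In IR, 16 were highest in IR 6, the library with the lowest share, and 17 were lowest in IR 1, the one with the highest. In sham, 24 were highest in sham 1, at 10.3%, and 23 lowest in sham 2, at 42.8%. FPKM divides by a total that includes the mitochondrial counts, which lowers every nuclear gene in a library with a large share. The share of all genes that were highest or lowest in the same libraries is not given here. These counts are therefore not read as a trait of the members, and their cause was not tested.

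The genes that supply and control the P450 enzymes were looked at in the same fit. Of 8 microsomal partner and haem genes, 0 passed in IR-Ori over IR (1 higher and 1 lower at an unadjusted p under 0.05) and 1 in IR over sham, where Hmox1, the haem oxygenase that breaks down the P450 cofactor, was higher (3.21 ± 0.71, edgeR adjusted p = 0.0103), with 23.8 to 481 FPKM in IR against 5.64 to 39.6 FPKM in sham. In IR-Ori over IR, DESeq2 called Alas1 higher and Hmox1 lower. Alas1, the first enzyme of haem synthesis, had 77.2, 98.4 and 114 FPKM in its lowest, median and highest IR-Ori library, against 34.5, 59.3 and 87.3 FPKM in IR and 80.8, 97.5 and 142 FPKM in sham. It did not pass, at 0.68 ± 0.25 in IR-Ori over IR and -0.76 ± 0.25 in IR over sham (edgeR adjusted p = 0.119 and 0.0703), and passed in both with DESeq2 (adjusted p = 0.0469 and 0.0182) and in IR over sham without IR 3 or IR 6 (edgeR adjusted p down to 0.0349). The electron donor Por had medians of 81.0, 107 and 84.0 FPKM in IR-Ori, IR and sham and did not pass in any comparison.

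Among 7 tested sensors and their partners, 0 passed in IR-Ori over IR (2 higher and 1 lower at an unadjusted p under 0.05) and 1 was higher in IR over sham, Tiparp, a target and repressor of the aryl hydrocarbon receptor (2.87 ± 0.71, edgeR adjusted p = 0.0184). That call was lost without IR 6, where the fold change was 1.44 (edgeR adjusted p = 0.0763), and with limma on log2(FPKM + 1) (adjusted p = 0.0860). The pregnane X receptor gene Nr1i2 had 49.9, 64.0 and 105 FPKM in its lowest, median and highest IR-Ori library, against 19.3, 36.6 and 55.9 FPKM in IR and 38.7, 62.8 and 76.9 FPKM in sham. It was at 0.92 ± 0.27 in IR-Ori over IR and -0.77 ± 0.27 in IR over sham (edgeR adjusted p = 0.0631 and 0.0920). Nr1i3, the gene of the constitutive androstane receptor, had 39.7, 94.2 and 223 FPKM in IR-Ori, against 9.06, 32.3 and 87.6 FPKM in IR and 49.6, 100 and 176 FPKM in sham, at 1.45 ± 0.51 and -1.54 ± 0.51 (edgeR adjusted p = 0.103 and 0.0689). Both receptors passed in both comparisons with DESeq2 (adjusted p 0.0171 to 0.0450). With edgeR, Nr1i2 passed in IR-Ori over IR with library totals (adjusted p = 0.0443) and without IR-Ori 5, IR 1 or IR 3 (down to 0.0313). Nr1i3 passed without IR 3 in IR-Ori over IR and in IR over sham (edgeR adjusted p = 0.0427 and 0.0271), and in IR over sham with the mitochondrial share as a covariate (0.0361) and in libraries under 15% (0.0172). Ahr and Hnf4a had medians of 7.42 and 96.1 FPKM in IR-Ori, 7.28 and 93.9 FPKM in IR and 7.59 and 81.4 FPKM in sham and did not pass.

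All 4 listed clock output factors passed in IR over sham and 0 in IR-Ori over IR, where 2 were higher and 1 lower at an unadjusted p under 0.05 and DESeq2 called Tef higher. Dbp fell to 4.41 to 12.7 FPKM in IR, against 13.4 to 39.4 FPKM in sham, with no overlap (-1.61 ± 0.45, edgeR adjusted p = 0.0338). Tef fell to 6.16 to 23.8 FPKM, against 24.8 to 44.5 FPKM, also with no overlap (-1.11 ± 0.29, edgeR adjusted p = 0.0245), and Hlf fell with overlap (-1.01 ± 0.23, edgeR adjusted p = 0.0135). Nfil3, the repressor at the same D-box site, rose (1.69 ± 0.49, edgeR adjusted p = 0.0385). Without IR 6 the fold change of Nfil3 was 0.78 (edgeR adjusted p = 0.149), and it was also lost without IR 4 and without each sham library, and with limma on log2(FPKM + 1) (adjusted p = 0.0884). The calls of Dbp were lost without any of IR 2, 4, 5 and 6 or sham 3, 4 and 5, those of Tef without IR 4 or IR 5, and that of Hlf was kept in all 18 omissions. The list was chosen with earlier results of these data known. Of the 3 tested members whose promoter holds a D-box match, Cyp2a4, Cyp2a5 and Cyp2b10, 0 passed in this comparison, with fold changes of -5.00, -1.07 and -0.26.

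None of 11 hepatocyte transcription factors passed in any of the 3 comparisons with edgeR; at an unadjusted p under 0.05, 1 was higher and 1 lower in IR-Ori over IR, and 1 lower in IR over sham, and DESeq2 called 1, Nr1h4, higher in IR-Ori than in IR. None of 6 growth hormone and sex-pattern regulators passed with edgeR; 1 was higher in IR-Ori over IR and 4 were lower in IR over sham at an unadjusted p under 0.05, and DESeq2 called 3 of them, Cux2, Ghr and Socs2, lower in IR. Of 8 pericentral and 8 periportal hepatocyte genes outside the P450 families, 0 passed in any comparison with edgeR, DESeq2 or limma; at an unadjusted p under 0.05, 0 and 1 were higher in IR-Ori over IR, and 0 and 1 lower in IR over sham. Of 10 tested acute phase and interleukin genes, 4 were higher in IR than in sham and 1 was lower in IR-Ori than in IR. Of 5 sex chromosome transcripts, 1 was lower in IR than in sham with edgeR and 0 passed in IR-Ori over IR or IR-Ori over sham. DESeq2 called Xist lower in IR and in IR-Ori than in sham, and Eif2s3y and Uty higher in IR-Ori than in IR. Limma on log2(FPKM + 1) called 0 of these 5. Among the 25 tested P450 genes of other families, 1 was higher in IR-Ori than in IR and 2 were lower in IR than in sham.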

How the data were processed

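Deposited values came from 18 mouse liver libraries. Per the submitters' processing notes, cutadapt 1.9.1, HISAT2 2.2.1, the build GRCm39 and DESeq2 were used; neither the counting tool nor its strand setting nor the annotation release is named there. The authors deposited whole-number counts per gene, unscaled, and FPKM, which equal the count over exonic length and library total, mitochondrial counts included, for 100.0% of values to the 2 decimals given. No 2 libraries were identical, and no per-sample column was left unused.

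Tests on the counts used edgeR 4.0.16 under R 4.3.3 (filterByExpr with minimum count 10 and minimum total 15, which kept 14595 of 56691 genes; trimmed mean of M-values; quasi-likelihood F test, two-sided; 1 model of all 18 libraries, 15 residual degrees of freedom). P-values were adjusted by Benjamini-Hochberg over all genes tested, with a threshold of 0.05, and the standard error is the log2 fold change over the square root of F. Rows without a symbol (2639) were kept, since they are genes with an identifier. The common coefficient of variation was 0.398. The slope on the mitochondrial share was fitted with the group as a factor. The tests were tried on simulated data with known fold changes, drawn independently for each library. The outcome is not given here and is not used as support.

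IR libraries enter both IR-Ori over IR and IR over sham, on opposite sides, so these 2 comparisons are not independent. The alternatives were DESeq2 1.42.0, limma 3.58.1 on log2(FPKM + 1) and log2(FPKM + 0.1) (genes reaching an FPKM of 1 in 6 or more libraries, or no filter), other scalings and filters, only the libraries of 2 groups, the mitochondrial share as a covariate, a replicate block and leaving out each library. The share of 75-base transcript windows found in another gene came from GENCODE M21, which holds 58 of the 59 members (Cyp2d13 is not used there). Only genes whose symbol begins with Cyp were compared, so windows shared with genes of other names were not looked for.

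The members, the 16 lists (112 of 113 genes found) and the rule for named genes were chosen with earlier results of these data known. The rule names each member that passed or separated the groups, the highest of each subfamily, and members and regulators fixed by symbol; further members with an unadjusted p under 0.05, Cyp2a12 and, where DESeq2 called them, 4 regulators were named after their values were seen.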

Additional observations from a re-analysis of the deposited data

Results flagged for a closer look

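A library was singled out where its gap to the nearest other library of its group exceeded the 95% critical value of Dixon's test for 6 values, over 73 groups of 6 (33 named members, groups whose highest value is under 1 FPKM left out). It did so in 16 groups. The rate of about 1 in 20 groups flagged by chance holds for normally distributed values, and FPKM need not be so. The filter also lets an outlying library bring in its own group, as IR 4 did for Cyp2g1. The values of a library are not independent of each other either, so the number of such groups is not read against chance.

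IR-Ori 5 stood above the rest of its group for 6 members, with 2801.88 FPKM of Cyp2e1, 766.4 FPKM of Cyp3a11, 220.89 FPKM of Cyp2j5, 6.79 FPKM of Cyp2r1, 70.5 FPKM of Cyp2a4 and 5.77 FPKM of Cyp2b9. It had 14.1% mitochondrial counts, beside 26.8 to 32.0% in the other 5; the part of that share was not tested. In IR-Ori 6, Cyp2a22 stood at 8.23 FPKM, and in IR-Ori 1, Cyp2d9 at 314.12 FPKM.

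IR 4 stood above its group for 5 members, with 23.01 FPKM of Cyp2b10, 8.18 FPKM of Cyp2b9, 3.47 FPKM of Cyp2a4, 2.38 FPKM of Cyp2c55 and 1.39 FPKM of Cyp2g1.

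In sham 3, Cyp2a4 stood at 178.44 FPKM and Cyp2b9 at 9.45 FPKM, and in sham 5, Cyp2a22 stood at 12.67 FPKM.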

How the results depend on the processing

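In IR-Ori over IR, the 2 members called became 4 with DESeq2, 1 with only the 2 groups' libraries, 1 with the replicate block and 0 with limma on log2(FPKM + 0.1), with limma without a filter and with libraries of at least 15% mitochondrial share; leaving out 1 library gave 0 to 3. In IR over sham, the 2 became 5 with DESeq2, 4 with the mitochondrial share as a covariate, 1 with the replicate block, 0 with limma without a filter and in libraries of at least 15%, and 7 in those under 15%; leaving out 1 library gave 1 to 4. IR-Ori over sham gave 0 throughout. The 2 restrictions on the mitochondrial share were chosen after seeing the data, and the cause of these differences was not tested. The share of all genes called under each setting is not given here, so these counts are not read as a trait of the members.

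The block used the replicate numbers of the titles, which the labels do not tie to anything shared; deviations of same-numbered libraries correlated between -0.441 and 0.418. Under the block Cyp2j9 was at 1.83 (edgeR adjusted p = 0.0597) and Cyp2a22 at -1.84 (edgeR adjusted p = 0.102), while Cyp2j6 and Cyp2c23 still passed.

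Signs turned for values that had not passed. In IR-Ori over IR, Cyp1a2 was at -0.0318 with library totals and -0.28 at a share of at least 15%. In IR over sham at that share, Cyp1a2 was at 0.44, Cyp2c40 at 0.19, Cyp2c69 at 0.25 and Cyp2e1 at 0.15; Cyp3a11 was at -0.0013 without mitochondrial genes and -0.17 in libraries under 15%. In IR-Ori over sham in libraries of at least 15%, Cyp1a2 was at 0.16. Leaving out 1 library moved Cyp1a2 to between -0.15 and 0.23 in IR-Ori over IR and between -0.56 and 0.0116 in IR-Ori over sham, and Cyp3a11 to between -0.33 and 0.24 in IR over sham. Over the members' fold changes followed here, 1006 refits kept direction and side of the threshold, 29 newly passed, 32 no longer passed and 21 turned sign.

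With FPKM over nuclear counts, subfamily medians moved beyond 1 SD in IR-Ori for Cyp1a (194 FPKM), Cyp2c (1087 FPKM), Cyp2d (1395 FPKM) and Cyp2j (212 FPKM), in IR for Cyp2d (1476 FPKM) and Cyp2r (3.51 FPKM), and in sham for Cyp2d (1778 FPKM) and Cyp2u (6.03 FPKM).

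Limits: 6 libraries a group, a spread between libraries larger than most differences seen, low counts for 21 members under 1 FPKM, and near copies in Cyp2a, Cyp2c and Cyp2d.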
